A study of Homo sapiens with 2 samples.

Results

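The chromatin of 9 genes of the epithelial tight junction was compared between cells with and without guides against ZEB1. The 9 genes were LSR, MARVELD2, MARVELD3, OCLN, F11R, TJP1, TJP3, CGN and CGNL1, of the 19962 protein-coding genes of the autosomes and X. A region was taken for a gene when a peak lay in the gene body or within 20 kb of any of its annotated transcript starts, which gave 53 regions of 83311 in all. Peaks of both libraries that overlapped by at least 1 bp were merged into 1 region.

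The cells were SUM159, an established cell line of claudin-low breast cancer that lacks hormone receptors and HER2 and looks mesenchymal, and both populations carried the lentiviral vector pLV-KRAB, which expresses dCas9-KRAB, a cleavage-dead Cas9 joined to the KRAB repressor domain. The No gRNA population was the empty vector control with no targeting guide. The All gRNA population also carried 4 guides against the promoter of ZEB1. Open chromatin was measured by ATAC-seq, in which the transposase Tn5 inserts adapters into accessible DNA, in 1 library per group. Nothing could therefore be tested between the conditions, and each difference below is one between these 2 libraries. Whether the transduced cells were pooled or clonal is not stated in the labels.

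Tight junctions seal the space between neighbouring epithelial cells and are lost or reorganised when cells take on a mesenchymal state. Their membrane proteins (claudins, occludin and its relatives, junctional adhesion molecules and, where 3 cells meet, LSR, also called angulin-1) are tied to the actin cytoskeleton by scaffold proteins of the ZO and cingulin families. ZEB1 is a zinc-finger repressor of epithelial genes that binds the E-box CAGGTG, which reads CACCTG on the other strand.

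The depth of the All gRNA library, recovered from the lists, was 0.743 times that of No gRNA. All heights below are summit pileups, the number of read ends whose window covers the summit of a peak, and a ratio is the All gRNA pileup over the No gRNA pileup after scaling by this depth. Intervals of ratios are 95% Clopper-Pearson intervals that cover counting error only. They are too narrow if both ends of a fragment were counted, which the sources used here do not state. Over all 50354 shared regions the median ratio was 0.925 (-0.11 on the log2 scale). The start of ZEB1 itself held a peak in No gRNA only, with a pileup of 27. All 5 mesenchymal markers examined (VIM, CDH2, FN1, SPARC and AXL) had a start-site peak in both libraries, whereas none of the 7 epithelial markers (CDH1, EPCAM, ESRP1, GRHL2, CLDN3, CLDN4 and CLDN7), nor PTPRC of blood cells or PECAM1 of endothelium, had one in either.

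The difference that stood out most at the tight junction genes was a wide peak just upstream of the main start of LSR, present in All gRNA and absent from the No gRNA list. It lay at chr19:35247800-35248913 (hg38), and its summit was at position 35248134, 196 bp upstream of the first annotated LSR start. The first stretch printed here covers this summit and holds the first pair of E-box matches, in capitals. It is read on the plus strand of chr19:35247900-35248199, upstream of every annotated LSR start.

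LSR upstream stretch: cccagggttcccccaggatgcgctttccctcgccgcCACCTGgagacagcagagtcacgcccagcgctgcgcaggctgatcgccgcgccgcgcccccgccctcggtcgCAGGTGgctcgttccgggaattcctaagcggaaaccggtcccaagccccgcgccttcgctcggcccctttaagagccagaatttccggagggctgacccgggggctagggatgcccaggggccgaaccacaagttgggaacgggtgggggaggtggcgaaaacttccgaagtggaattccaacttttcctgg

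E-box matches were also found in regions at the main starts of F11R and OCLN that were called in All gRNA only. These sites are shown because they lie in regions next to a main start that were called in that library alone, although matches also occurred at regions in No gRNA only, such as 1 each at CGN and F11R. Shared regions within 1 kb of an annotated start of CGNL1, TJP1 and TJP3 held matches too. The F11R and OCLN sites in All gRNA only, and the other matches of the LSR region, are printed with 10 bases either side on the strand of the gene, the match in capitals.

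LSR, chr19:35248459-35248484, plus strand, untranslated exon: agggagggaaCAGGTGcgcggcggga
LSR, chr19:35248490-35248515, plus strand, untranslated exon: cctatctcaaCAGGTGaatcgctcca
LSR, chr19:35248638-35248663, plus strand, untranslated exon: ggacggagcgCACCTGggtcagccca
F11R, chr1:161021268-161021293, minus strand, untranslated exon: ggcggggtaaCACCTGgccgaggtga
F11R, chr1:161021384-161021409, minus strand, upstream of the gene: agggggccgtCACCTGctgaaggtgc
OCLN, chr5:69492647-69492672, plus strand, untranslated exon: taggacgcagCAGGTGggactcgcgg
OCLN, chr5:69492815-69492840, plus strand, untranslated exon: ggtgcggcgtCAGGTGcgcccgccag
OCLN, chr5:69492828-69492853, plus strand, untranslated exon: gtgcgcccgcCAGGTGagcgcgctcc

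LSR encodes the transmembrane protein that marks tricellular contacts and recruits tricellulin there. The region upstream of the LSR main start was 1114 bp wide in All gRNA, with a pileup of 51, a deposited fold of 11.1 over the local background and a −log10 q of 36.7. No gRNA had no peak there, and its nearest peak was 19063 bp from the main start at position 35249002. The region ended 89 bp before that start and overlapped other annotated starts of the gene. At the depth of No gRNA a pileup of 51 corresponds to 68.6. The lowest pileup called in the No gRNA list at a like background (within 5%) was 14, so the scaled pileup was 4.90 times that limit (3.65 to 6.45). This is not a fold change, because the No gRNA pileup at the site is not in the list and a peak also had to be at least 200 bp wide.

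Among the 16211 regions found in All gRNA only, the LSR region was the widest, against a median of 227 bp, and it ranked 3 by −log10 q and 5 by pileup. At the main start sites of protein-coding genes, a peak within 1 kb was present in both libraries for 60.5% and in neither for 35.6%, while 1.39% had one in All gRNA only and 2.51% in No gRNA only. LSR had the highest pileup of the 278 genes in the All gRNA only class. The genes that came closest were MTFP1 with a pileup of 29, GJB5 with 27, ENSG00000289766 with 24, GSG1 with 24 and ANGPTL4 with 23. The plot of these pileups by rank shows the gap between LSR and the rest.

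**Figure D1:**
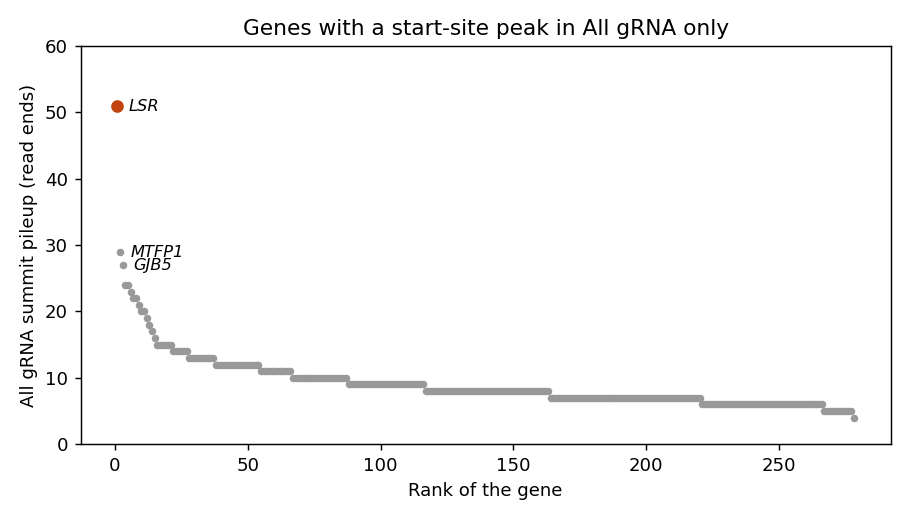
All gRNA summit pileup (read ends, vertical axis) of the 278 protein-coding genes with a peak within 1 kb of the main start site in All gRNA only, ordered by rank (horizontal axis). LSR, the large point, has a pileup of 51, and the next gene, MTFP1, has 29.

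The E-box matches in the LSR region were at -1066, -994, -533, -502 and -354 bp from the main start, counted to the first base of each match. None lay within 100 bp of the summit. Of the 1469 regions whose width was within 10% of that of LSR, 5 held at least 5 matches (0.340%), the LSR region included, and their median was 1 match. The comparison regions were not matched on base composition, and 64.8% of the bases of the LSR region were G or C. The RefSeq promoter window of LSR (GRCh38.p14, chr19:35248752-35249051), which starts downstream of these matches, held none, and 20.6% of the 34961 RefSeq promoter windows of the same length held at least 1.

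The other regions near LSR belonged to the neighbouring gene USF2, within 1 kb of its start, and were present in both libraries. Their pileups were 18 in No gRNA against 16 in All gRNA for one (ratio 1.20, 0.571 to 2.49) and 38 and 28 for the other (ratio 0.992, 0.586 to 1.66). Neither ratio was separable from 1 by counting error.

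Over all 9 genes, 28 regions were shared, 13 were called in All gRNA only and 12 in No gRNA only. Of all regions of both lists, 60.4% were shared, 20.1% were No gRNA only and 19.5% were All gRNA only. Regions chosen in the same way at all protein-coding genes were shared in 63.2%, No gRNA only in 19.5% and All gRNA only in 17.3%. At the tight junction genes the shared regions made up 52.8% (95% Wilson interval 39.7% to 65.6%), those in No gRNA only 22.6% (13.5% to 35.5%) and those in All gRNA only 24.5% (14.9% to 37.6%). Each of these intervals, which take the regions as independent, held both background shares. Peaks covered 14444 bp in No gRNA and 15312 bp in All gRNA (106%), against 92.4% over all peaks. Without LSR the figure for the other genes was 99.4%. Of the 53 regions, 14 reached within 1 kb of a start of the gene itself, and 7 lay within 1 kb of a start of another protein-coding gene.

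At the shared regions the median ratio was 0.915, with 18 ratios below 1 and 10 above. The lowest ratio was 0.475 and the highest 2.20. Of all shared regions, 3.95% were more than 2-fold higher and 4.54% more than 2-fold lower in All gRNA. Among those chosen the same way at all protein-coding genes the shares were 3.29% and 4.46%. Of the 28 tight junction regions, 1 was past 2-fold higher and 3 were past 2-fold lower. With ratios scaled to the median of all shared regions, none of the 3 was past 2-fold lower, and their ratios were 0.513, 0.529 and 0.533. Of the 28 intervals, 1 lay above 1 and 2 lay below it, against 3.36% above and 8.97% below over all shared regions. The shared peaks were narrower in All gRNA in 17 of 28 regions, with a median width of 385 bp in No gRNA and 339 bp in All gRNA, and 61.1% of all shared regions were narrower in All gRNA. The plots of heights by gene and of ratios with their intervals show these values.

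**Figure D2:**
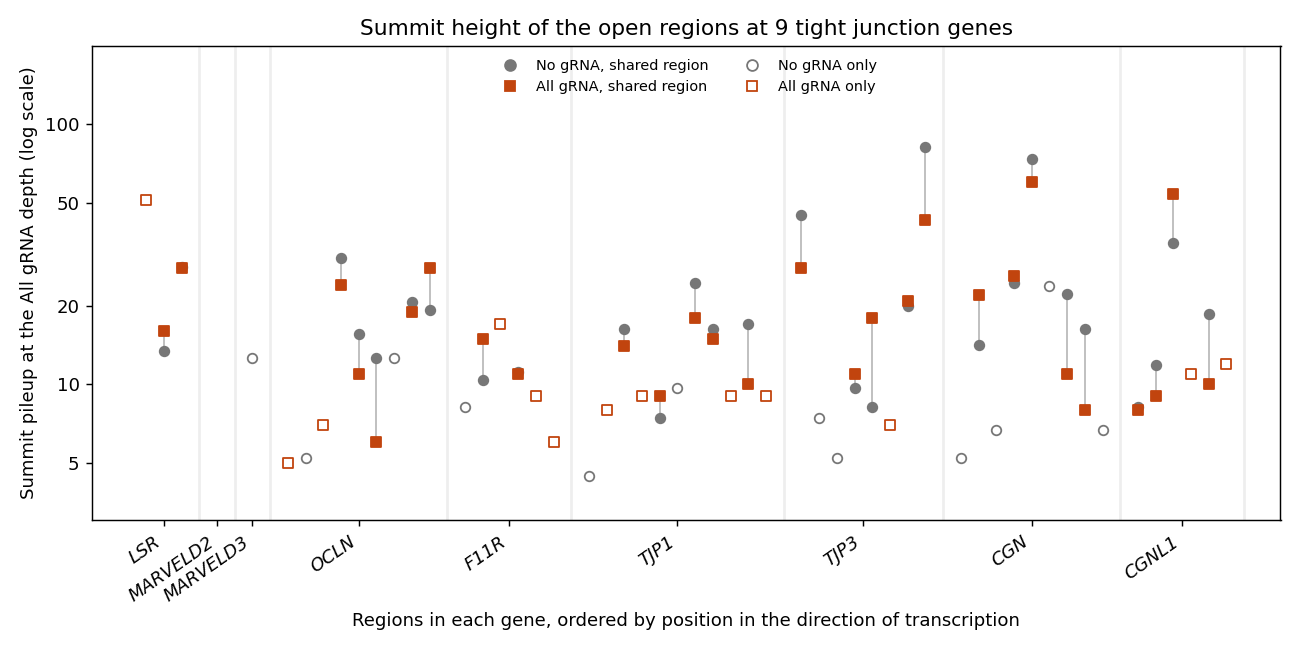
Summit pileup of the 53 regions at the tight junction genes (vertical axis, log scale, No gRNA multiplied by the depth ratio 0.743), grouped by gene and ordered along the direction of transcription (horizontal axis). Filled circles and squares joined by a line are the No gRNA and All gRNA values of 1 shared region, open symbols are regions in 1 library only, and the open square of LSR at 51 is the highest of the regions in 1 library only.

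**Figure D3:**
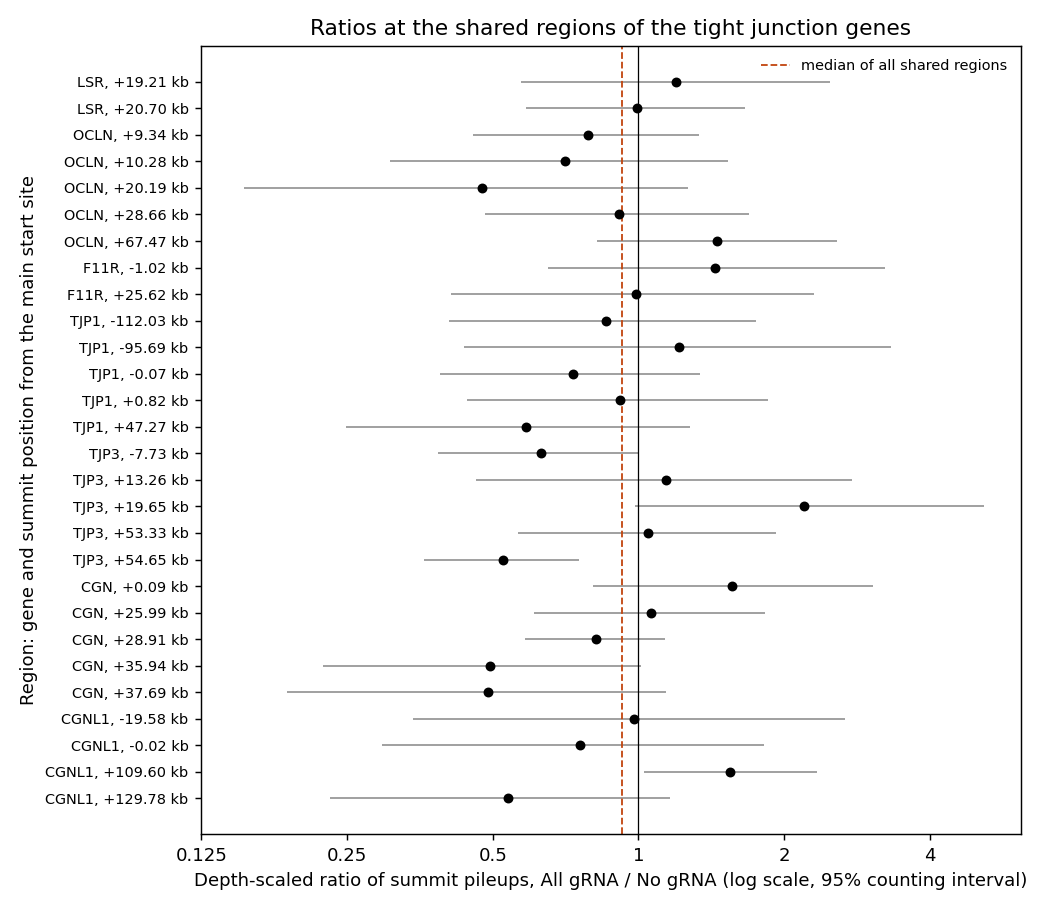
Depth-scaled ratio of summit pileups, All gRNA over No gRNA (horizontal axis, log scale), at the 28 shared regions, named by gene and by the position of the summit from the main start (vertical axis). Bars are 95% counting intervals and the dashed line is the median of all shared regions, 0.925. The interval of the CGNL1 region at 109.6 kb lies above 1, and those of the TJP3 regions at -7.73 and 54.65 kb lie below it.

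Part of the OCLN, TJP1 and MARVELD2 loci is also present on alternate contigs of the mapping reference, which touches every value at these genes. Of the 50-base sequences sampled from their windows, 95.2% for OCLN, 93.4% for TJP1 and 90.3% for MARVELD2 also occurred on such contigs, against at most 6.31% for the other 6 genes. The lists held contig peaks that could be placed on these genes by sequence. There were 6 in No gRNA and 7 in All gRNA for OCLN, and 12 and 9 for TJP1. How reads that fit both copies were assigned is not given in the sources used here. For these genes the chromosome values are therefore given first and those of the contig copy after them, as an alternative chosen after seeing the data. Pileups were summed over both copies, and a ratio given, only where each library had a peak on each copy, since the pileup at a place with no called peak is not in the lists. With the contig peaks placed by sequence, 31 regions were shared, 11 were No gRNA only and 11 were All gRNA only. Contig peaks that overlapped none of the chromosome regions were left out of these counts. Several at TJP1 were of this kind, such as an All gRNA peak of 11 at 86943 bp from the main start and a No gRNA peak of 10 at -16234 bp.

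F11R encodes JAM-A, an immunoglobulin-like adhesion molecule of the tight junction. Just upstream of its main start a region was called in All gRNA only, chr1:161021243-161021582, with a pileup of 17. At the No gRNA depth this corresponds to 22.9, against a call limit of 10. The region held 2 E-box matches, and 3.53% of regions of like width, not matched on base composition, held as many. Within 100 bp of its summit 58.7% of the bases were G or C. Further upstream, the region with its summit at -1024 bp from the start was shared, with pileups of 14 and 15 (ratio 1.44, 0.649 to 3.22). Another region, with its summit at -1563 bp, was in No gRNA only, with a pileup of 11 and 1 E-box match within 100 bp of its summit. The upstream chromatin of F11R thus held peaks in both libraries, at positions that overlapped in part.

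In and beyond the F11R gene body, a region in an untranslated exon was shared, with a pileup of 15 in No gRNA against 11 in All gRNA (ratio 0.987, 0.410 to 2.30). Regions with summits 38746 and 27296 bp downstream of the main start, outside the gene, were in All gRNA only, with pileups of 6 and 9. These correspond to 8.07 and 12.1 at the No gRNA depth, against call limits of 5 and 7. Covered length at F11R was 755 bp in No gRNA and 1279 bp in All gRNA.

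OCLN encodes occludin, a tetraspan (MARVEL domain) protein of the junction strand. Near its main start the called peaks were weak and did not overlap between libraries. All gRNA had peaks with pileups of 5 (chr5:69492578-69492909, over the start) and 7 (chr5:69493603-69493807), and No gRNA had 1 with a pileup of 7 (chr5:69493316-69493548). The scaled pileups of these 3 peaks were 6.73, 9.42 and 5.20 against a call limit of 5 in the other library each time. All were thus close to the limit of detection. The region over the start held 3 E-box matches, which 0.494% of regions of like width did, and 1 lay 24 bp from the summit. Regions of like width were not matched on base composition, and 72.1% of the bases within 100 bp of this summit were G or C. On the contig copy no peak overlapped the region over the start. A No gRNA contig peak with a pileup of 7 overlapped both the other regions, and an All gRNA contig peak of 6 overlapped the 69493603 region alone, so this region became shared and the 69493316 region stayed in No gRNA only. A further All gRNA contig peak, with a pileup of 8 at 377 bp from the start, overlapped none of the 3.

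Within the OCLN gene the strongest region was intronic, 9344 bp from the main start, with a pileup of 41 in No gRNA against 24 in All gRNA (ratio 0.788, 0.455 to 1.34). Both copies together gave 89 and 43 (ratio 0.650, 0.441 to 0.946), so that the interval fell below 1. Of the OCLN and TJP1 regions with a ratio over both copies, it was the only one whose interval did not hold 1. The intronic region at 20190 bp was more than 2-fold lower, with pileups of 17 and 6 (ratio 0.475, 0.153 to 1.26), and on the contig copy it was called in No gRNA alone, with 12. An intronic region at 10284 bp had 21 and 11 (ratio 0.705, 0.307 to 1.53), and both copies together gave 33 and 22 (ratio 0.897, 0.498 to 1.59). A region in an untranslated exon at 28664 bp had 28 and 19 (ratio 0.913, 0.482 to 1.69). Its 2 copies together gave 45 and 27 (ratio 0.807, 0.482 to 1.33). The region at 23770 bp was in No gRNA only, with a pileup of 17, but a contig peak of 9 in All gRNA made it shared. The region at the start of the neighbouring gene GTF2H2C had 26 and 28 (ratio 1.45, 0.819 to 2.57). With the contig copy added, it had 52 and 49 (ratio 1.27, 0.841 to 1.91).

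MARVELD2 encodes tricellulin, the partner of LSR at tricellular junctions, and MARVELD3 a further member of the occludin family. MARVELD2 had no peak in its window in either library, and none on its alternate contig within 20 kb of the main start. MARVELD3 had 1 region, with its summit at -14920 bp from the main start (chr16:71611158-71611404), in No gRNA only. Its pileup of 17 corresponds to 12.6 at the All gRNA depth, 2.53 times the call limit of 5. Neither gene had a peak at its start, so openness there was not detectable at this depth in either library.

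TJP1 (ZO-1) and TJP3 (ZO-3) encode scaffold proteins that link the membrane proteins to actin. The main start of TJP1 held a shared region with a pileup of 33 in No gRNA against 18 in All gRNA (ratio 0.734, 0.389 to 1.34), and both copies together gave 61 and 34 (ratio 0.750, 0.478 to 1.16). A second region 824 bp into the gene had 22 and 15 (ratio 0.918, 0.443 to 1.85), and both copies together gave 47 and 24 (ratio 0.687, 0.402 to 1.15). Of the 11 TJP1 regions, 5 were shared, 2 were No gRNA only with pileups of 13 and 6, and 4 were All gRNA only with pileups of 8 to 9. Covered length was 2586 bp in No gRNA and 3359 bp in All gRNA.

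On the alternate copy, some of these differences between libraries were found again and others were not. The intronic region at -21471 bp from the main start was in No gRNA only in both copies, with pileups of 13 and 14. The region 123893 bp downstream was in All gRNA only in both, with 9 and 8. The region at -117228 bp, All gRNA only on the chromosome with 8, had a No gRNA contig peak of 9. The region at -156259 bp was in No gRNA only in both, with 6 and 10. Those at 6801 and -103152 bp, in All gRNA only on the chromosome with 9 each, had no contig peak. The shared region at -95695 bp had 10 and 9 (ratio 1.21, 0.435 to 3.32), and both copies together gave 21 and 20 (ratio 1.28, 0.659 to 2.48). The intronic regions at 47269 and -112035 bp were shared on the chromosome, with pileups of 23 and 10 (ratio 0.585, 0.249 to 1.28) and of 22 and 14 (ratio 0.856, 0.405 to 1.75), and were called on the contig in No gRNA alone, with 16 and 21.

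TJP3 had no peak within 1 kb of its main start in either library. Its 2 regions within 1 kb of other annotated starts were shared. The one at 13255 bp from the main start, chr19:3721547-3721835, had pileups of 13 and 11 (ratio 1.14, 0.462 to 2.75). The one at 19647 bp, chr19:3727905-3728166, had 11 and 18 and was the only region past 2-fold higher (ratio 2.20, 0.985 to 5.16). Regions at -2061 and 10927 bp were in No gRNA only, with pileups of 10 and 7, and 1 at 30300 bp was in All gRNA only, with 7.

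The regions of the TJP3 window whose intervals lay below 1 belonged to neighbouring genes. The region at the starts of MRPL54 and APBA3, chr19:3762532-3763267, had a pileup of 110 in No gRNA against 43 in All gRNA (ratio 0.526, 0.361 to 0.755), and the region next to it had 27 and 21 (ratio 1.05, 0.563 to 1.92). The region at the start of PIP5K1C, chr19:3700204-3700864, had 60 and 28 (ratio 0.628, 0.386 to 0.999). Pileups were also divided by 2, in case both ends of a fragment were counted. The interval of the MRPL54 and APBA3 region was then 0.313 to 0.897 and that of the PIP5K1C region was 0.308 to 1.22. Over all shared regions the median log2 ratio also fell with height, from 0.07 in the lowest of 5 height classes to -0.23 in the highest, and the part of this trend in the values of these tall regions was not tested.

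CGN (cingulin) and CGNL1 (paracingulin) encode cytoplasmic plaque proteins that bind ZO proteins and actin. The main start of CGN held a shared region with pileups of 19 and 22 (ratio 1.56, 0.805 to 3.04). Downstream of it a No gRNA only region, 451 bp into the gene, had a pileup of 9, which corresponds to 6.69 against a call limit of 5. The region itself held 1 E-box match, and 20.1% of regions of like width, not matched on base composition, held as many. Within 100 bp of its summit there were 2 matches, 1 of them outside the region. Of the 9 CGN regions, 5 were shared, 4 were No gRNA only and 0 were All gRNA only. Covered length was 3257 bp in No gRNA and 2011 bp in All gRNA.

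The CGN window also reaches into TUFT1, which lies downstream, so the counts and covered length given for CGN include regions at TUFT1. Among them were the No gRNA only regions at 31628 and 42588 bp from the CGN start, inside TUFT1, with pileups of 32 and 9. The region at the TUFT1 start had pileups of 99 and 60 (ratio 0.816, 0.582 to 1.14). Regions at 35936 and 37691 bp from the CGN start were past 2-fold lower, with 30 and 11 (ratio 0.493, 0.223 to 1.01) and with 22 and 8 (ratio 0.489, 0.188 to 1.14). Both intervals reached 1. The region at the 3′ untranslated exon of CGN had 33 and 26 (ratio 1.06, 0.609 to 1.83).

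The main start of CGNL1 held a shared region with pileups of 16 and 9 (ratio 0.757, 0.295 to 1.82). The only region of all 28 whose interval lay above 1 was intronic, 109604 bp from the CGNL1 main start at chr15:57485914-57486355, with 47 in No gRNA and 54 in All gRNA (ratio 1.55, 1.03 to 2.34). With pileups divided by 2, its interval was 0.841 to 2.74. The summit of this region, chr15:57486009-57486209 on the plus strand, is printed because it holds 3 matches to TGACTCA or its complement TGAGTCA, the AP-1 motif, in capitals. As many were found within 100 bp of the summit in 0.130% of all regions, a share given for a stretch picked after its matches were seen. At least 1 match was found in 24.5% of the 53 regions and in 23.9% of all regions. AP-1 factors are known for binding at distal enhancers, but whether they bind here was not tested.

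CGNL1 intron summit: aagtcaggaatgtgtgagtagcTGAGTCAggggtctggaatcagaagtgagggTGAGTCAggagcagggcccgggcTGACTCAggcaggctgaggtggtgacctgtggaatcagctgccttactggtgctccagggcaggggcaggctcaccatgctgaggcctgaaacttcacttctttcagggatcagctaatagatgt

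The other CGNL1 introns held a shared region with 25 and 10 (ratio 0.538, 0.231 to 1.16) and 2 regions in All gRNA only, with pileups of 11 and 12. These correspond to 14.8 and 16.1 at the No gRNA depth, against call limits of 7 and 5. Covered length was 1611 bp in No gRNA and 2123 bp in All gRNA.

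Of the regions in 1 library only, 8 of 13 in All gRNA and 2 of 12 in No gRNA had a scaled pileup at least 2 times the call limit of the other library. The 8 included the 4 of TJP1, at 2.15 to 2.42 times the limit. Of these, the one at -117228 bp became shared once contig peaks were placed. Over all regions of both lists the shares were 44.5% of those in All gRNA only and 30.3% of those in No gRNA only, so the order of these counts was also that of the whole lists. The highest of those in No gRNA only was a region of the CGN window, inside TUFT1, with a pileup of 32, and the lowest had 6. In All gRNA only the pileups ran from 5 to 51, with a median of 9.

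E-box matches within 100 bp of the summit were counted at all regions, on both strands. They were found in 11 of the 53 tight junction regions (20.8%, 95% Wilson interval 12.0% to 33.5%) and in 12.7% of all regions. Over all regions the share was 16.4% in All gRNA only, 11.7% in No gRNA only and 11.8% in shared regions. At the tight junction genes it was 3 of 13, 4 of 12 and 4 of 28. The tight junction regions were richer in G and C, with a median of 53.7% against 47.3%. The related sequence CAGCTG was found in 5 of 53 (12.1% of all regions) and TGACTCA in 13 of 53 (23.9% of all regions).

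At the main starts of 20 other genes of the tight junction and its associated polarity complexes (JAM2, JAM3, CXADR, ILDR1, ILDR2, MAGI1, MAGI2, MAGI3, MPDZ, PATJ, PALS1, CRB3, AMOT, AMOTL1, AMOTL2, SYMPK, YBX3, ARHGEF11, ARHGEF18 and VASP), 16 had a peak in both libraries and 4 (ILDR1, MAGI2, CRB3 and ARHGEF18) in neither. None had one in 1 library only. Of the 16 ratios, 12 were below 1 and 4 above, with a median of 0.776, and 73.8% of the 12071 start sites open in both libraries were below 1, with a median of 0.858. The intervals of 5 of the 16 lay below 1 (MAGI3, PALS1, AMOTL2, SYMPK and YBX3, named after their values were seen) and 0 lay above, against 16.2% and 1.61% of those start sites. More than 2-fold higher were 0.82% of these start sites and more than 2-fold lower 2.84%. PATJ, a scaffold of the apical polarity complex, had pileups of 7 and 12 (ratio 2.31, 0.837 to 6.92). YBX3, a DNA-binding protein that associates with ZO-1, had 75 and 23 (ratio 0.413, 0.247 to 0.666). At the starts of the 9 genes themselves the counts were 5 in both libraries, 1 in All gRNA only (LSR) and 3 in neither. A start counted as both when each library had a peak in a region within 1 kb, whether or not the peaks overlapped. At OCLN they did not overlap, and at F11R the region next to the start was in All gRNA only.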

How the data were processed

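ATAC-seq peak lists of 2 SUM159 libraries, 1 per group, were used. The authors used fastp for trimming and bowtie2 for mapping to hg38, discarded duplicates, mitochondrial reads and exclusion-list reads, and ran MACS2 on each library with no control. The deposited lists give each peak a fold enrichment (a ratio), a −log10 p, a −log10 q, a summit offset and a score, which is 10 times the −log10 q and was not used. The lists hold 74757 (No gRNA) and 75217 (All gRNA) peaks. No library totals are given in the lists.

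Summit pileups were solved from the fold and −log10 p (100% of peaks in each list, within 0.005) and the depth ratio from the lowest backgrounds (0.652 and 0.484). The method was tested on simulated peaks. Regions on chromosomes 1 to 22 and X were annotated with GENCODE release 44. A call meant more than 2-fold. Call limits used peaks of the other list with a background within 5%. Motifs were searched in hg38 and in RefSeq promoter windows (GRCh38.p14), where F11R and MARVELD3 are missing. Contig copies were found by 50-base matches every 100 bases over 430 contigs. All 9 genes are named. Other genes are named where they neighbour a region, where a listed tight junction gene is past 2-fold, and as the 5 genes after LSR by pileup in its class. The genes and lists were chosen with earlier results of these data known. A gene of the second list and a sequence are not reported here. Thresholds, overlap, windows, scaling and halved pileups were varied. Python 3.11.15, numpy 2.4.6, pandas 2.3.3, scipy 1.17.1, pysam 0.24.0 and matplotlib 3.10.9 were used.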

Additional observations from a re-analysis of the deposited data

How the results depend on the processing

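No paired analysis was possible because with 1 library per group there was no test. Regions in All gRNA only numbered 8 when both lists were limited to a −log10 q of 5 or more (9 in No gRNA only), and 3 with 10 or more (12 in No gRNA only), where 11 were shared, and a window of 5 kb left 7 in No gRNA only. Covered length in All gRNA was 103% of No gRNA at a −log10 q of 5, 70.9% at 10, 112% with 5 kb, 105% with 50 kb and 99.4% without LSR, so the order of the libraries turned in 2 of these. Scaling by the median of all shared regions gave a median ratio of 0.989, 0 regions past 2-fold lower, 2 intervals above 1 and 1 below. The deposited fold gave a median ratio of 0.819 and 0 regions past 2-fold in either direction. Halved pileups left 0 intervals above 1 and 1 below, and leaving out regions near another gene's start left 0 below. The LSR pileup was 2.54 times the limit when a −log10 q of 10 was required. E-boxes were found in 45.3% of the regions within 250 bp of the summit (30.3% of all regions) and in 34.0% over the whole region (24.5%). The other 40 values stayed within their limits. With 1 library a group, the spread between cultures is unknown, and pileups near the call limit (5 or 4 at the lowest backgrounds) do not separate presence from absence.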
